A study of Mus musculus with 24 samples.

Results

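The enzymes of fatty acid and lipid metabolism were examined for differences in 5-hydroxymethylcytosine (5hmC) between mouse ESCs that express wild-type Tet3 and ESCs that express Tet3 without its phosphorylation sites. The set holds 50 genes, chosen by their roles but with earlier results of these data known, and grouped by metabolic step. A differentially 5-hydroxymethylated region (DhMR) was assigned to a gene when it lay inside the gene span, within 20 kb of it, or carried that gene's Ensembl ID in the deposited list. By this rule, 118 of the 20726 listed DhMRs belonged to the set. Both lines derive from triple-knockout mouse ESCs, on a mixed C57BL/6J-129V background, which lack their own *Tet1*, *Tet2* and *Tet3* genes and were cultured in 2i medium with LIF. Wt25 cells received full-length human wild-type Tet3 and AA10 cells the phosphor-mutant Tet3, in which both phosphorylated serines are alanine. Both proteins were delivered by lentivirus, and each line is 1 clone selected with puromycin for a similar Tet3 level, so the effect of the mutation and a difference between 2 clones cannot be told apart. 5hmC-DIP recovers DNA fragments that carry 5hmC with an antibody, and 3 libraries of each line were compared. The comparison asks where 5hmC depends on the phosphorylation sites of Tet3, here at genes of one branch of metabolism.

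Each DhMR is a bin of 200 bp with a position and a direction only. A Wt25 DhMR had higher 5hmC in Wt25 cells, and an AA10 DhMR had higher 5hmC in AA10 cells. The deposited lists carry neither read counts nor fold changes nor *P*-values and give 1 call per bin over the 3 libraries of each line, so neither the size of a difference nor its spread between replicates can be given, and the depth behind a single bin is unknown. Shares are therefore given with 95% Wilson intervals that cover counting error only, beside the same values over all DhMRs, and no test was made. No expression values were used, so the ESC label was not checked against marker genes.

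Cells build fatty acids in the cytosol from acetyl-CoA, extend them in the endoplasmic reticulum with the Elovl elongases, and insert double bonds with the Scd and Fads desaturases. Fatty acids are activated to acyl-CoA before use. They then enter mitochondria through the carnitine palmitoyltransferases for β-oxidation, or are esterified to glycerolipids by acyltransferases, lipins and Dgat enzymes. Acetyl-CoA is also the entry point of sterol synthesis through HMG-CoA, and Srebf1 and Srebf2 are the transcription factors that control both branches. Tet enzymes oxidise 5-methylcytosine, which in mammals lies mostly at CpG dinucleotides, so CpGs are counted for each DhMR. The antibody recovers whole fragments, which can reach beyond a bin, so the modified bases themselves were not located. Over all listed DhMRs, 52 Wt25 and 32 AA10 DhMRs held 0 CpGs.

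The sequences of 10 DhMRs are shown because they carry the main findings: the 5 AA10 DhMRs inside *Elovl6*, the Wt25 DhMRs inside *Pnpla2*, which had the most Wt25 DhMRs of the set, and DhMRs in the promoter of *Fads3* and in the promoter and coding exon 5 of *Hmgcs1*. All are from the plus strand of GRCm38, 5′ to 3′, and capitals mark CpGs.
*Elovl6* intron 2, AA10 DhMR, chr3:129556803-129557000: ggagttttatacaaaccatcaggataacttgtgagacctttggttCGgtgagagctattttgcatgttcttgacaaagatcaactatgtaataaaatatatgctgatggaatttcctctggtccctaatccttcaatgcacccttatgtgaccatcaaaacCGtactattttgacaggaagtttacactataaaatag
*Elovl6* intron 2, AA10 DhMR, chr3:129590803-129591000: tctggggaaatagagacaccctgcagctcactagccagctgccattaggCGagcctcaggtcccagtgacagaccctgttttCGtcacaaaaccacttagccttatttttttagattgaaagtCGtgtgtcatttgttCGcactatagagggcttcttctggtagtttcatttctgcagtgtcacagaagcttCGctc
*Elovl6* intron 2, AA10 DhMR, chr3:129591003-129591200: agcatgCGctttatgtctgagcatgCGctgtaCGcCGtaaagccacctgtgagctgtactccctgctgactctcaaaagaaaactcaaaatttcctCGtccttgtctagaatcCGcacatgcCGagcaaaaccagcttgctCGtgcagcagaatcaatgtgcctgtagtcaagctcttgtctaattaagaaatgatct
*Elovl6* intron 2, AA10 DhMR, chr3:129591203-129591400: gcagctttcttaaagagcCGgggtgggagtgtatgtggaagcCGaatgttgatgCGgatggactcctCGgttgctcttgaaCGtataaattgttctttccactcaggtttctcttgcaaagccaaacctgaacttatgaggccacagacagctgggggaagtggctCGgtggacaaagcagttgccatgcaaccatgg
*Elovl6* intron 2, AA10 DhMR, chr3:129594803-129595000: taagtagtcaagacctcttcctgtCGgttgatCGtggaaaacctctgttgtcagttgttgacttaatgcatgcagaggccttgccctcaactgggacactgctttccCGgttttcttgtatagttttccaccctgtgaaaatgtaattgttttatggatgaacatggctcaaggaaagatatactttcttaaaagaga
*Pnpla2* intron 1, Wt25 DhMR, chr7:141456203-141456400: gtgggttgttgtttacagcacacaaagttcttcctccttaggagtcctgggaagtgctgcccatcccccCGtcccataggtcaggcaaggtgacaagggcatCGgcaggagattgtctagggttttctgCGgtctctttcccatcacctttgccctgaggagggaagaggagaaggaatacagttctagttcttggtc
*Pnpla2* coding exon 2, Wt25 DhMR, chr7:141457403-141457600: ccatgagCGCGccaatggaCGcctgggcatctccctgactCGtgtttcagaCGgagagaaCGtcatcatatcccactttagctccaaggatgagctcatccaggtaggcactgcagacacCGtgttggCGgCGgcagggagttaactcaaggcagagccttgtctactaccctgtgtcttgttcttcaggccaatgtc
*Fads3* promoter, Wt25 DhMR, chr19:10041203-10041400: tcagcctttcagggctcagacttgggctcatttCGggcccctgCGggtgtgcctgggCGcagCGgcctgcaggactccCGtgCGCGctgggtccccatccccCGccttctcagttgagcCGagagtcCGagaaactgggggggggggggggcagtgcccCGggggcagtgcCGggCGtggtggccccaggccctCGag
*Hmgcs1* coding exon 5, AA10 DhMR, chr13:119701003-119701200: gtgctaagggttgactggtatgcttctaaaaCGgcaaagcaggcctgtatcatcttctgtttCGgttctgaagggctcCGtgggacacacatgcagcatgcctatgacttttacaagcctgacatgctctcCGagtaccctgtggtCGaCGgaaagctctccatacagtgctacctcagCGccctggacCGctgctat
*Hmgcs1* promoter, AA10 DhMR, chr13:119689403-119689600: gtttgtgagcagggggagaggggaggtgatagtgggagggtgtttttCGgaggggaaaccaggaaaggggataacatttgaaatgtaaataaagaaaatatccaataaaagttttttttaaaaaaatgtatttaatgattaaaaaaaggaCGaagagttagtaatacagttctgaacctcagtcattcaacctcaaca
The first 5 lay in intron 2 of *Elovl6* and held 24 CpGs together. Of these, 19 fell in 3 adjacent bins of 598 bp in all. The *Fads3* promoter DhMR was the richest in CpG of all 118, with 14 CpGs and 72.7% GC.

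*Hmgcs1* held 57 of the 118 DhMRs, and every other member held 6 or fewer. A DhMR was found at 29 of the 50 members (58%), where 44.2% of all 21938 protein-coding genes had one by the same rule. The members were longer genes, with a median span of 37.4 kb against 17.4 kb, and without *Hmgcs1* they held 1.07 DhMRs per 100 kb of gene span against 1.05 for protein-coding genes. Wt25 DhMRs were found at 14 members (28%) and AA10 DhMRs at 18 members (36%), against 29.3% and 21.8% of protein-coding genes. Inside the gene span, 15 members had a DhMR (30.0%, background 21.3%). Of these, 6 had Wt25 DhMRs (12%, background 13.4%) and 9 had AA10 DhMRs (18%, background 10.1%), and no member had both inside. By the whole rule 11 members had Wt25 DhMRs only, 15 had AA10 DhMRs only, and *Acads*, *Agpat4* and *Lpin1* had both. Few protein-coding genes had both as well, since 29.3% and 21.8% had each direction and 44.2% had either. Inside the span the same shares were 13.4%, 10.1% and 21.3%, so little overlap is not particular to the set.

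Of the 118 DhMRs, 28 were higher in Wt25 and 90 in AA10, a Wt25 share of 23.7% (17.0% to 32.2%), where 58.4% of all listed DhMRs were higher in Wt25. Without *Hmgcs1* the set had 28 Wt25 and 33 AA10 DhMRs, a Wt25 share of 45.9% (34.0% to 58.3%). Joining these within 1 kb gave 27 Wt25 and 28 AA10 regions. The chromosomes differ in direction, and the mean Wt25 share of the chromosomes on which these 61 DhMRs lie was 63.3%. Inside gene spans other than *Hmgcs1*, 9 of 26 DhMRs were higher in Wt25 (34.6%, 19.4% to 53.8%), and in the flanks 16 of 30 were (53.3%, 36.1% to 69.8%). Per 100 kb of gene span and without *Hmgcs1*, the members held 0.371 Wt25 DhMRs and 0.70 AA10 DhMRs, where protein-coding genes held 0.646 and 0.404.

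**Figure D1:**
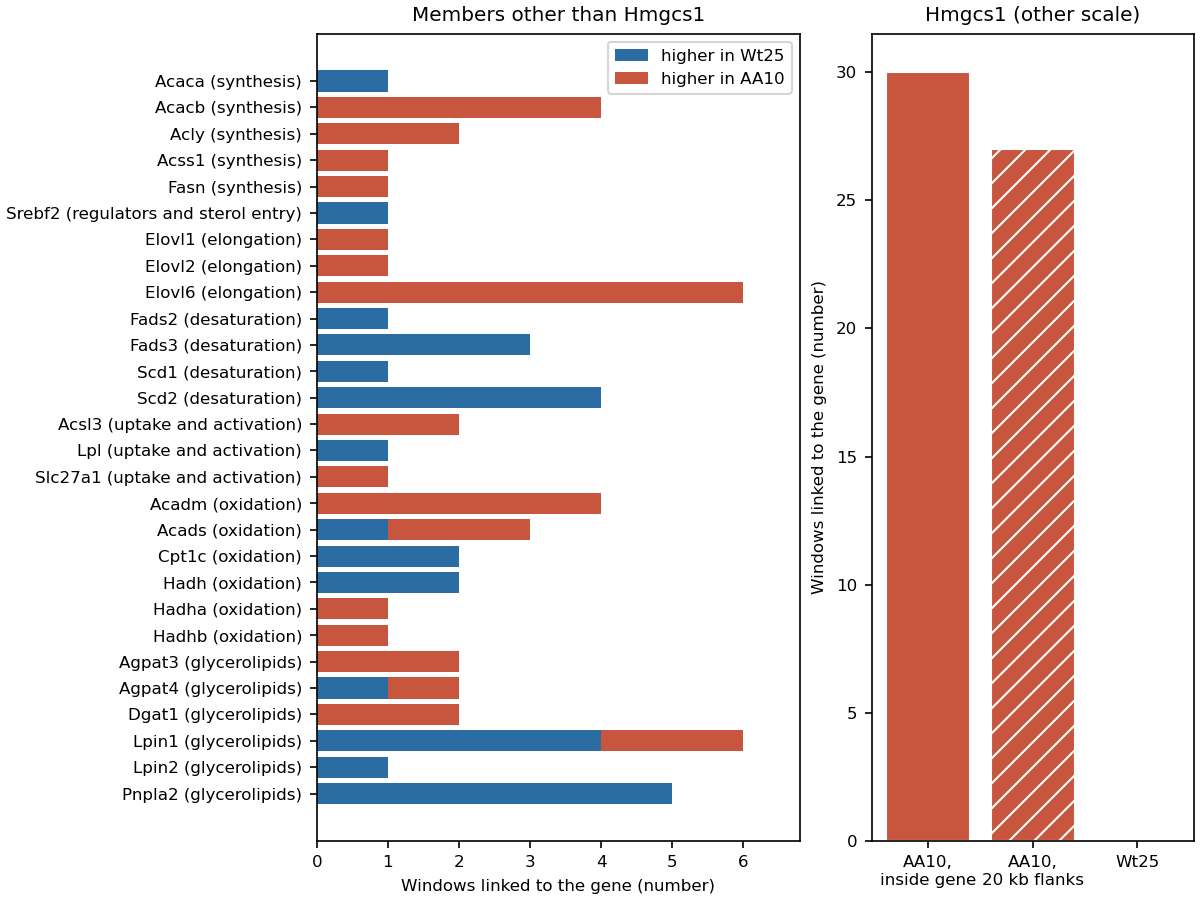
Number of DhMRs linked to each of the 28 other members with a DhMR (left, bars by direction, ordered by metabolic step) and to *Hmgcs1* on its own scale (right). *Hmgcs1* had 30 AA10 DhMRs inside the gene and 27 in its flanks, while no other member had more than 6 DhMRs.

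*Hmgcs1* encodes the cytosolic HMG-CoA synthase, which makes the HMG-CoA of the sterol pathway. The gene lies on the plus strand of chromosome 13 from 119690379 to 119708260 and had 57 AA10 DhMRs and no Wt25 DhMR (0%, 0% to 6.31%). That interval treats neighbouring bins of 1 locus as independent, and joining them within 1 kb left 15 regions. Of the 57 DhMRs, 13 lay before the start of the gene, 30 inside and 14 beyond its end. Inside the gene 24 lay in introns, with 7 in intron 1 and 12 in intron 2, and 6 in exons, of which 3 lay in exon 11, the last. The 30 DhMRs filled 33.6% of the 200-bp bins of the gene, a density of 168 DhMRs per 100 kb. One AA10 DhMR lay in its promoter, 1 kb before the start, with 2 CpGs. The midpoints of 3 others lay in its coding sequence, in exon 5 with 8 CpGs and in exons 8 and 10 with 4 CpGs each. Those in exons 8 and 10, and another in intron 9, also lay in the promoter of *Gm48342*, a non-coding gene that starts within *Hmgcs1*, and were counted as promoter. CpG numbers at *Hmgcs1* ran from 1 to 8 with a median of 2.

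The DhMRs of *Hmgcs1* were part of a larger stretch of the chromosome. They belonged to a dense run, defined as 20 or more consecutive DhMRs of the same direction no more than 10 kb apart, which held 64 AA10 DhMRs over 67.8 kb from 119674403 to 119742200 and also covered part of *Nim1k*. Within 1 Mb of the gene, up to the end of the chromosome, another 466 AA10 DhMRs and 3 Wt25 DhMRs were listed. That end of chromosome 13 thus held 523 of the 834 AA10 DhMRs of the chromosome (62.7%), and on the rest of the chromosome 69.5% of DhMRs were higher in Wt25. The reads were aligned uniquely, and a median of 100% of the 32-mers of the *Hmgcs1* DhMRs occur once in the assembled chromosomes. Of the neighbouring DhMRs 42.0% had less than 50% of such 32-mers. Whether the clones differ in DNA copy number there was not tested.

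**Figure D2:**
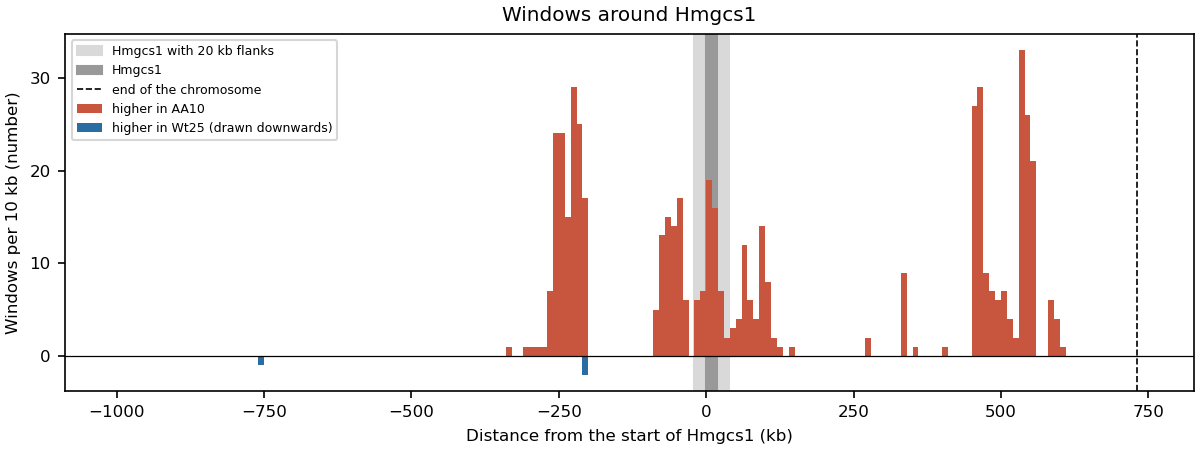
DhMRs per 10 kb by distance from the start of *Hmgcs1* in kb, with AA10 DhMRs upwards and Wt25 DhMRs downwards. Grey marks the gene and its 20 kb flanks and the dashed line the chromosome end; the 57 AA10 DhMRs of *Hmgcs1* lie amid 466 others.

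Genes of fatty acid synthesis had AA10 DhMRs at 4 of 6 members and a Wt25 DhMR at 1. The Wt25 share was 1 of 9 (11.1%, 1.99% to 43.5%), where the same chromosomes had a mean of 64.2%. Of the 8 AA10 DhMRs, 4 were at *Acacb* and 1 at *Acss1*, whose enzymes are mitochondrial. The share therefore does not describe cytosolic synthesis alone. *Acacb* encodes the mitochondrial acetyl-CoA carboxylase, whose product malonyl-CoA restrains fatty acid import, and had 4 AA10 DhMRs. Those inside the gene lay on chromosome 5 in intron 7 (114191603 to 114191800, 1 CpG) and intron 9 (114192403 to 114192600, 6 CpGs). The other 2 lay 3.4 kb and 17.8 kb before its start, the farther one in the promoter of *Alkbh2*. These were 77.3% and 87.9% repeat sequence, and the farther one had 43.1% of its 32-mers once in the genome. Within 1 Mb of *Acacb*, the other DhMRs were mixed, with 29 higher in Wt25 and 26 in AA10. *Acly*, which makes cytosolic acetyl-CoA from citrate, had 2 AA10 DhMRs, in introns 14 and 16. *Acss1*, a mitochondrial acetyl-CoA synthetase, and *Fasn*, the fatty acid synthase, had 1 AA10 DhMR each. The *Fasn* DhMR lay 2.2 kb before its start, over *Ccdc57*. The only Wt25 DhMR was at *Acaca*, the cytosolic acetyl-CoA carboxylase, and lay in the gene span but in none of its basic transcripts, in sequence that was 100% repeat. *Acss2* had no DhMR.

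Of the transcription factors, *Srebf2* had 1 Wt25 DhMR, in intron 1 and with 4 CpGs, and *Srebf1* had none.

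The elongases had AA10 DhMRs only. *Elovl6*, which extends saturated and monounsaturated fatty acids such as the palmitate made by Fasn, had 6. *Elovl1* and *Elovl2* had 1 each, and *Elovl3*, *Elovl4*, *Elovl5* and *Elovl7* had none. The Wt25 share was therefore 0 of 8 (0%, 0% to 32.4%), with a mean of 58.1% on the same chromosomes. The 5 AA10 DhMRs inside *Elovl6* were known when the genes were chosen, so this share in part restates that choice. *Elovl6* lies on the plus strand of chromosome 3 from 129532355 to 129638495. The DhMRs inside it began at 129556803 with 2 CpGs, 129590803 with 5, 129591003 with 8, 129591203 with 6 and 129594803 with 3. The first lay 24.5 kb after the gene start, the 3 adjacent ones 58.5 to 58.9 kb after it, and the last 3.4 kb beyond that cluster. The sixth lay beyond the end of the gene, 119.7 kb from the start. All 6 had 100% of their 32-mers once in the genome and none lay in a dense run. When DhMRs that touch were joined, 4 regions remained at *Elovl6*. The deposited list gives no gene for the 5 DhMRs inside *Elovl6*, and the sixth carries the ID of *Egf*. Within 1 Mb of *Elovl6* another 10 Wt25 and 3 AA10 DhMRs were listed, so most of the surrounding DhMRs ran the other way. The *Elovl2* DhMR lay in intron 1 with 4 CpGs, while that of *Elovl1* lay in its flank.

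The desaturases had Wt25 DhMRs only, at 4 of 5 members. The share was 9 of 9 (100%, 70.1% to 100%). All of these genes lie on chromosome 19, where 591 Wt25 and 135 AA10 DhMRs were listed (81.4% higher in Wt25), so the share of the step lay near that of its chromosome. *Fads3*, a desaturase family member, had 3 Wt25 DhMRs, none inside the gene. That in its promoter lay 0.3 kb before the start, the second 6.3 kb before it with 4 CpGs and the third 12.3 kb before it with 5, the latter pair over *Rab3il1*. *Scd2*, a stearoyl-CoA desaturase, had 4 Wt25 DhMRs, none inside the gene. They lay 7.4 kb before its start (1 CpG), 26.2 kb (3 CpGs) and 27.2 kb (1 CpG) after it, and 42.4 kb before it, where only the deposited ID assigned the DhMR (5 CpGs). Those 26.2 and 27.2 kb after the start carried the ID of *Scd4*. *Fads2* had 1 DhMR, in intron 5, with 4 CpGs, and *Scd1* had 1 by deposited ID only, 42.2 kb before its start. *Fads1* had none. Around these genes DhMRs of both directions were listed, with 5 Wt25 and 4 AA10 within 1 Mb of *Fads3* and 15 Wt25 and 11 AA10 within 1 Mb of *Scd2*.

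**Figure D3:**
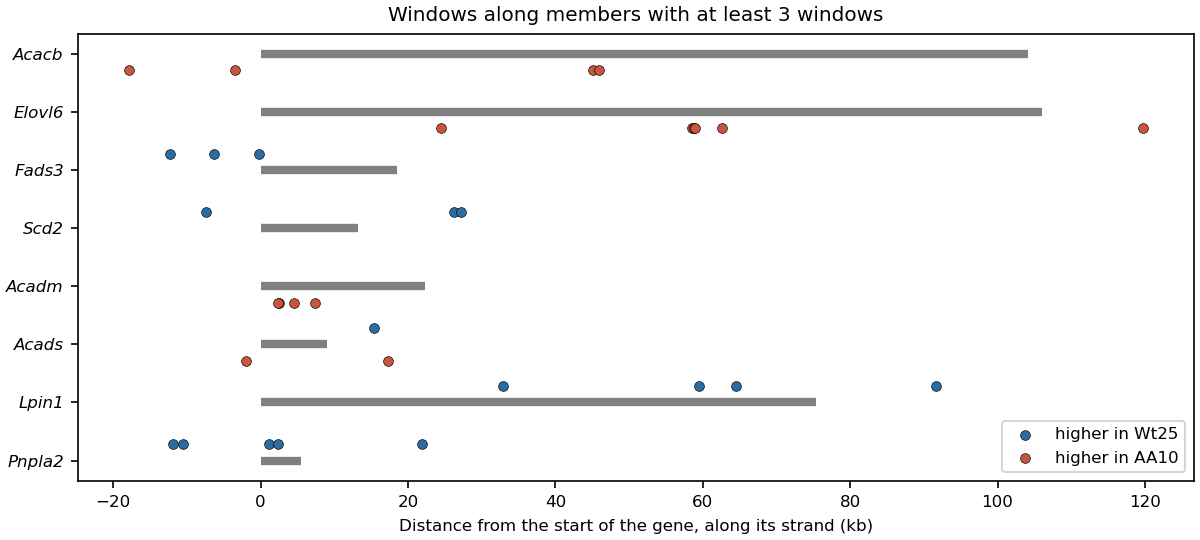
DhMRs along the 8 members other than *Hmgcs1* with at least 3 DhMRs, by distance from the gene start along its strand in kb. Grey bars are gene spans, points above them Wt25 and below them AA10 DhMRs; those assigned by deposited ID alone are left out. *Elovl6*, *Acacb* and *Acadm* had only AA10 DhMRs and *Fads3*, *Scd2* and *Pnpla2* only Wt25 DhMRs.

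Uptake and activation had few DhMRs. *Acsl3*, an acyl-CoA synthetase, had 2 AA10 DhMRs, one in intron 2 and one assigned by its ID 54.1 kb before the start. *Slc27a1*, a fatty acid transporter, had 1 AA10 DhMR beyond its end, over *Pgls*. *Lpl*, the lipoprotein lipase, had 1 Wt25 DhMR, 13.8 kb before its start. The Wt25 share was 1 of 4 (25.0%, 4.56% to 69.9%), and *Acsl1*, *Acsl5*, *Acsl6*, *Slc27a4* and *Slc27a6* had none.

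Genes of β-oxidation had DhMRs of both directions at 6 of 10 members, with 5 of 12 higher in Wt25 (41.7%, 19.3% to 68.0%, chromosome mean 63.2%). *Acadm*, the medium-chain acyl-CoA dehydrogenase, had 4 AA10 DhMRs, all inside the gene on the minus strand of chromosome 3. From its start they lay in intron 1 at 2.3 kb (153942203, 2 CpGs) and 2.5 kb (153942003, 5 CpGs), in intron 2 at 4.5 kb (153940003, 3 CpGs) and in intron 6 at 7.3 kb (153937203, 3 CpGs). All 4 had 100% of their 32-mers once in the genome, and within 1 Mb another 9 Wt25 and 5 AA10 DhMRs were listed. *Acads*, the short-chain dehydrogenase, had none inside the gene. Near it an AA10 DhMR lay 2.0 kb before the start (3 CpGs), an AA10 DhMR 17.2 kb after it (1 CpG) and a Wt25 DhMR 15.4 kb after it (2 CpGs), the last in the promoter of *Rpl37rt*. *Hadhb*, a subunit of the trifunctional protein, had 1 AA10 DhMR in intron 7 with 7 CpGs, which is also the only one within 20 kb of its partner *Hadha*. *Cpt1c*, a neuronal carnitine palmitoyltransferase, and *Hadh*, which oxidises hydroxyacyl-CoA, had 2 Wt25 DhMRs each, all in the flanks. Inside the genes of this step, all 5 DhMRs were higher in AA10. *Acadl*, *Acadvl*, *Cpt1a* and *Cpt2* had none.

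Glycerolipid genes had the most DhMRs after *Hmgcs1*, with 11 Wt25 and 7 AA10 at 6 of 10 members. This share of 61.1% (38.6% to 79.7%) lay close to the chromosome mean of 59.0%. All 6 DhMRs inside these genes were higher in Wt25. *Pnpla2* encodes the lipase that starts the breakdown of triglycerides and had 5 Wt25 DhMRs. The gene is on chromosome 7 from 141455198 to 141460743. Inside it, a DhMR lay in intron 1, 1.1 kb after the start, with 3 CpGs, and the other in coding exon 2, 2.3 kb after the start, with 9 CpGs. The flanking ones lay 11.9 and 10.5 kb before the start, in the promoter of *Pidd1*, and 21.9 kb after it, over *Tspan4*. Around *Pnpla2* most DhMRs ran the same way, with another 22 higher in Wt25 and 2 in AA10 within 1 Mb. *Lpin1*, a phosphatidate phosphatase on the minus strand of chromosome 12, had 4 Wt25 DhMRs, in intron 3 (16578003, 2 CpGs), intron 14 (16551403, 4 CpGs), intron 17 (16546403, 4 CpGs) and beyond its end. A pair of AA10 DhMRs carried its ID but lay 330 and 335 kb from its start, over *Gm48606*. *Lpin2* had 1 Wt25 DhMR by ID only, with 8 CpGs, 60.2 kb before its start and in the promoter of another gene. *Agpat4*, an acyltransferase of phosphatidic acid synthesis, had 1 Wt25 DhMR in intron 2, in sequence that was 94.9% repeat, and 1 AA10 DhMR 4.2 kb before the start. *Agpat3* and *Dgat1*, which completes triglyceride synthesis, had 2 AA10 DhMRs each, all in the flanks. Those of *Dgat1* lay over *Hsf1* in sequence that was 80.8% and 100% repeat. *Agpat5*, *Dgat2*, *Gpam* and *Lpin3* had no DhMR, and neither had *Cers6*, the ceramide synthase of the set.

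Other genes of the same pathways had mostly Wt25 DhMRs in synthesis and elongation and mostly AA10 DhMRs in oxidation. In sterol entry and uptake they had equal numbers of both. The members had more AA10 than Wt25 DhMRs at each of these steps, by 3 to 1 in uptake and 7 to 5 in oxidation. In sterol entry all AA10 DhMRs of members were those of *Hmgcs1*, and 1 Wt25 DhMR remained without it. The list of 144 other genes had 143 DhMRs at 69 genes, 80 Wt25 and 63 AA10 (55.9% Wt25, 47.8% to 63.8%). In synthesis they had 10 Wt25 and 2 AA10 DhMRs (83.3%, 55.2% to 95.3%). The further enzymes of the elongation cycle had 8 Wt25 DhMRs and no AA10 DhMR (100%, 67.6% to 100%), at *Hacd4* (3), *Hacd3* (2), *Tecrl* (2) and *Tecr* (1), the dehydratases and enoyl reductases that act after the elongases. These counts rest on few genes, since *Elovl6* held 6 of the members' 8 elongation DhMRs, 3 of them adjacent. The 5 inside *Elovl6* were known when the genes were chosen. *Oxsm* held 6 of the 10 Wt25 DhMRs of the other synthesis genes. The difference between members and other genes was not tested. In oxidation, 5 of 18 were higher in Wt25 (27.8%, 12.5% to 50.9%), below the chromosome mean of 63.3%. Glycerolipid genes had 34 Wt25 and 24 AA10 DhMRs (58.6%), sterol and regulator genes 10 of each, sphingolipid genes 7 and 12, uptake genes 3 of each and desaturases 3 and 0. DhMRs also assigned to a member were not left out of the counts of other genes. Both DhMRs of the desaturase *Scd4* were also counted at *Scd2*. The 5 genes with most DhMRs were *Ptdss1*, a phosphatidylserine synthase, and *Oxsm*, a mitochondrial fatty acid synthase enzyme, with 6 Wt25 DhMRs each, *Lpcat1*, a lysophospholipid acyltransferase, with 4 Wt25 and 1 AA10, and *Pisd*, which decarboxylates phosphatidylserine, and *Smpd3*, a sphingomyelinase, with 2 Wt25 and 3 AA10 each. *Ptdss1* and *Lpcat1* lie on chromosome 13, as *Hmgcs1* does, and had mostly Wt25 DhMRs.

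**Figure D4:**
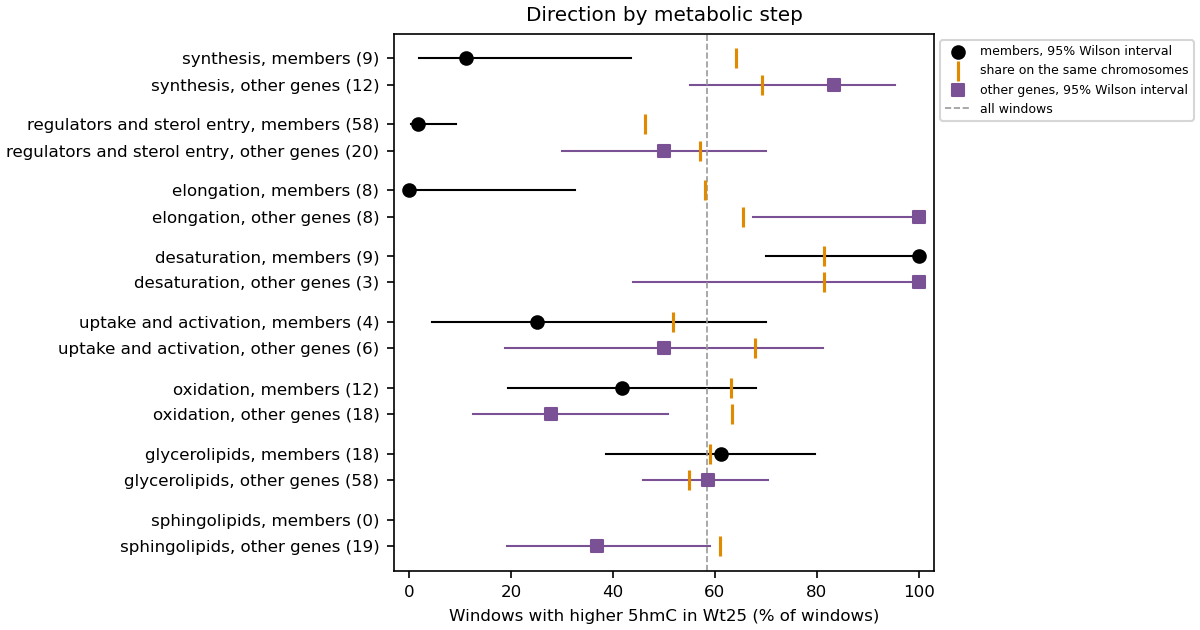
Share of DhMRs with higher 5hmC in Wt25 by metabolic step, in percent, for members (circles) and other genes of the step (squares), with 95% Wilson intervals and the number of DhMRs in parentheses. Orange ticks give the mean share of the same chromosomes and the dashed line the 58.4% of all DhMRs; elongation members stand at 0% and the other genes of that step at 100%.

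Most DhMRs of the set lay in introns or between genes, which held 51 of the 61 without *Hmgcs1* (83.6%, 72.4% to 90.8%) and 88.2% of all DhMRs. By their midpoints, 34 of the 61 lay in introns (55.7%, 43.3% to 67.5%) and 17 between genes (27.9%, 18.2% to 40.2%). Of the 33 AA10 DhMRs 23 were intronic (69.7%, 52.7% to 82.6%) and of the 28 Wt25 DhMRs 11 were (39.3%, 23.6% to 57.6%), against 44.0% and 49.6% of all AA10 and Wt25 DhMRs. All 17 AA10 DhMRs inside members other than *Hmgcs1* lay in introns, as did 7 of the 9 Wt25 DhMRs inside members. The rule keeps DhMRs in or near genes, so feature shares over all DhMRs, which need not lie near a gene, are not a like background. Promoters held 5 of the 28 Wt25 DhMRs (17.9%, 7.88% to 35.6%) and 1 of the 33 AA10 DhMRs (3.03%, 0.537% to 15.3%). Over all DhMRs, promoters held 4.56% of Wt25 and 5.65% of AA10 DhMRs. Among the promoter DhMRs of the set without *Hmgcs1*, only that of *Fads3* lay in the promoter of a member itself. *Hmgcs1*, left out here, had 7 of its 57 AA10 DhMRs in promoters. CpG numbers were 3.75 ± 2.85 per Wt25 DhMR (SD, n = 28 DhMRs) and 3.33 ± 1.91 per AA10 DhMR without *Hmgcs1* (n = 33), against 3.25 ± 2.52 and 3.16 ± 2.36 over all DhMRs. GC content was 50.8 ± 7.00% in Wt25 and 45.9 ± 5.58% in AA10 DhMRs of the set without *Hmgcs1*, and 47.4 ± 6.90% and 45.9 ± 6.85% over all DhMRs. At least 50% of the sequence was repeat in 13 of the 61 DhMRs (21.3%), where 26.6% of all DhMRs had as much.

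**Figure D5:**
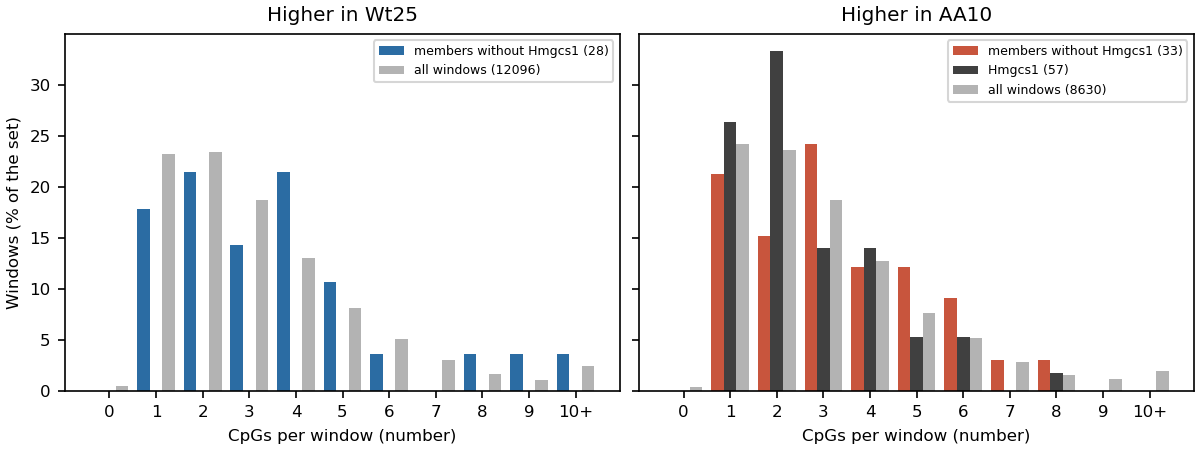
Percent of DhMRs with each number of CpGs (10 or more in 1 class), for DhMRs higher in Wt25 (left) and in AA10 (right). Coloured bars are members without *Hmgcs1*, dark bars *Hmgcs1* and light bars all DhMRs; the classes with most DhMRs lie between 1 and 4 CpGs in each set.

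Short sequences that regulators of metabolism recognise were searched on both strands. The nuclear receptor half-site AGGTCA was present in 9 of 118 DhMRs (7.63%, 4.06% to 13.9%), 6 of them at *Hmgcs1*, against 12.1% of all DhMRs. The E-box CACGTG was present in 4 (3.39%), at *Hmgcs1*, *Lpin2*, *Acadm* and *Acacb*, against 3.79%. The sterol element core TCACNCCAC was present in 1 DhMR, at *Agpat4*, against 0.753% of all, and in none at *Hmgcs1*. The core of the NRF1 motif, GCGCATGC, was present in a DhMR of *Fads2* and, at 2 places, in the middle DhMR of the *Elovl6* cluster shown above (8 CpGs), against 0.618% of all DhMRs. CCGG, the site of the enzyme MspI, was present in 29 of 118 (24.6%, 17.7% to 33.1%) and in 21.7% of all. Among those shown, it was present once each in the *Elovl6* DhMRs that begin at 129591203 and 129594803. It was present at 2 places in the *Fads3* promoter DhMR. The paper tested MspI digestion with primers that cover the *Elovl6* DhMR at 129591203. It reports a significant difference between Wt25 and AA10 there, with low signal in the triple-knockout cells.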

How the data were processed

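5hmC-DIP libraries of Wt25 and AA10 ESCs (3 of each) were compared through the 2 deposited lists of DhMR positions, which hold chromosome, start, end and, for most bins, an Ensembl gene ID. Per the methods, the authors kept unique STAR alignments to GRCm38, removed duplicates with Picard, compared the 3 libraries of each line in 200-bp bins with MEDIPS, removed bins that overlap IgG-DIP peaks or hold simple repeats, and annotated the rest with HOMER. Tool versions are not given in the sources used here. The lists carry no depth, fold change or error per bin, and bins under its thresholds are not listed, so a gene without a DhMR may still carry 5hmC.

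Positions are given from 1. Gene spans, exons and promoters (1 kb before to 100 bp after a transcript start) came from GENCODE vM21 basic and sequence from GRCm38.p6. Introns and exons were numbered in the principal transcript, and distances run from its start to the DhMR midpoint. A 32-mer was called unique when found once on both strands of the assembled chromosomes. The chromosome mean is the Wt25 share of each DhMR's chromosome, averaged over DhMRs. The gene assignment rule, dense runs, joining, sequence counts, 32-mer copies and Wilson intervals gave the planted answers on simulated data. Feature classes, exon and intron numbers and distances were not checked in this way. Python 3.11.15, pandas 2.3.3 and scipy 1.17.1 were used.

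The members, the lists of other genes and the tests were chosen with earlier results of these data known, so shares are descriptions and no *P*-value is given. Genes named in full had 3 or more DhMRs, or a DhMR with its midpoint in a promoter or coding exon of any gene, and of the other pathway genes those with most DhMRs. *Hmgcs1* is described by ranges in place of every DhMR. Members with fewer DhMRs are given by count and place. Alternatives were other flanks, gene ID or span alone, RefSeq spans, joined DhMRs, and leaving out repeats, dense runs, chromosome 6 or *Elovl6*. Leaving out *Hmgcs1* and DhMRs with copies was added after the data had been seen. RNA-seq, H3K27ac ChIP and input libraries were not analysed here.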

Additional observations from a re-analysis of the deposited data

How the results depend on the processing

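The lists hold positions only, so no replicate could be left out and no stricter threshold set. No paired analysis was possible because each list gives 1 call over all replicates and no result comes from a test. Of 118 DhMRs at 29 members with a Wt25 share of 23.7%, 56 DhMRs at 15 members (16.1%) remained with gene spans only, and 184 were found with 50 kb flanks. Joining DhMRs within 1 kb gave 70 regions (38.6%), and leaving out dense runs or *Hmgcs1* gave 61 DhMRs (45.9%), or 55 regions (49.1%) when *Hmgcs1* was left out and those within 1 kb were joined. By step, synthesis had 0% by deposited ID alone or outside repeats, regulators and sterol entry had 100% (1 DhMR) without *Hmgcs1*, and inside gene spans uptake had 0%, oxidation 0% and glycerolipids 100%. Elongation stayed at 0% and desaturation at 100%, but the alternatives run by step only remove or join DhMRs and could not change these shares. Elongation kept 1 DhMR by deposited ID alone and desaturation 1 inside gene spans. The mean CpG number of AA10 DhMRs was 2.89, with 3.49 for the DhMR with most CpGs of each region and 3.33 without *Hmgcs1*. Within their wide intervals, uptake had 50.0% by deposited ID (2 DhMRs), and regulators and sterol entry 3.23% inside gene spans and 6.25% after joining within 1 kb. A listed DhMR rests on 3 libraries of 1 clone per line at unknown depth, several shares rest on fewer than 10 DhMRs, and neighbouring bins are not independent.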
